A study of Homo sapiens with 9 samples.

Results

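The genes of insulin-like growth factor (IGF) binding and signaling were followed through RNAseq of an established human cell line of clear cell renal cell carcinoma (ccRCC). They were chosen by name and comprised 10 of the 58735 genes in the count table. These are the 7 IGF binding proteins IGFBP1 to IGFBP7, the type 1 IGF receptor IGF1R, and the receptor substrates IRS1 and IRS2. The line was sequenced in 3 states with 3 replicates each, 9 libraries in total: untreated parental cells (WT), WT cells given 10 μM PT2385, and cells in which HIF2a, encoded by EPAS1, had been knocked out (KO). All of them were kept for 48 h at 21% oxygen in DMEM with 5 mM glucose and 10% FBS. PT2385 is a small-molecule antagonist of HIF2α, which it keeps from forming a dimer with HIF1β. In WT cells, loss of VHL function leaves HIF2α stable in normal oxygen, and HIF1α is not functional. A vehicle for the untreated cells, the way the KO was made and whether it is a single clone are not given in the sources used here.

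IGF1 and IGF2 act through IGF1R, a receptor tyrosine kinase, and insulin through the related insulin receptor. The active receptors phosphorylate IRS1 and IRS2, docking proteins that recruit PI3-kinase and thereby switch on AKT, which restrains FOXO transcription factors and stimulates mTOR. Outside the cell the IGFs are carried by the IGFBPs, which prolong their life and limit their access to the receptor. Proteases such as PAPPA free IGFs by cutting IGFBP4, and the stanniocalcins STC1 and STC2 inhibit PAPPA. IGFBP1 and IGFBP3 are among the genes known to respond to hypoxia, and HIF2α is the main driver of the hypoxic program in ccRCC.

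The libraries held between 11881000 and 14730081 counted reads. Levels are given as CPM, counts scaled to library size, after normalization by the trimmed mean of M values (TMM) in edgeR, with factors between 0.988 and 1.02. Groups were compared in pairs with the quasi-likelihood F test of edgeR, and p was adjusted by the Benjamini-Hochberg method over all tested genes. A gene counted as changed at an adjusted p under 0.05. Of the 10 genes, 8 passed the filter on low counts in each comparison, and IGFBP2 and IGFBP5 did not. Both comparisons against untreated WT use the same 3 untreated libraries. Shuffling the labels of 3 against 3 libraries in every way cannot yield a p under 0.1.

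The targeted gene separated the groups as labelled. EPAS1 had 3226, 3210 and 2788 counts in untreated WT, 3075, 3317 and 3132 with PT2385 and 262, 360 and 307 in KO. Its level was 11.5-fold lower in KO than in untreated WT (log2 fold change -3.52, SE 0.0963, edgeR adjusted p = 2.15e-09), whereas the difference with PT2385 was -0.11 (adjusted p = 0.459). Reference genes known to be driven by HIF2α in this tumor type fell in both. VEGFA, an angiogenic factor, had log2 fold changes of -2.12 with PT2385 and -2.12 in KO. The glucose transporter SLC2A1 had -2.30 and -1.80, and cyclin D1 (CCND1) had -1.87 and -2.02. The prolyl hydroxylase EGLN3 had -3.14 with PT2385 and -5.74 in KO, and carbonic anhydrase CA12 had -1.46 and -3.37, so for EGLN3 and CA12 the KO lay lower than treated cells (edgeR adjusted p = 5.74e-06 and 1.70e-06). SLC2A1 was higher in KO than in treated cells (0.49, adjusted p = 0.00161), and VEGFA and CCND1 did not pass (adjusted p = 0.926 and 0.696).

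Cell identity was checked with marker genes. The renal epithelial markers PAX8, PAX2, CDH6, KRT8 and KRT18 were present in every library, with PAX8 the most abundant of these at 585 to 665 CPM in the group means, and the mesenchymal filament VIM was high (4253 to 4737 CPM). The endothelial markers PECAM1 and CDH5, the immune markers PTPRC and CD68 and the hepatocyte markers ALB and APOA1 had at most 2 counts in any library, and the fibroblast marker DCN had 0 throughout. Some epithelial markers moved with the groups. CDH6, KRT8 and KRT18 were higher and PAX2 was lower in both comparisons against untreated WT (PAX2 log2 fold change -0.44 with PT2385 and -1.30 in KO). With PT2385 the edgeR calls of PAX2 (adjusted p = 0.0325) and KRT8 (0.0423) were each lost in 5 of 6 fits with a library left out, where adjusted p reached 0.143 and 0.188, and that of KRT18 (0.0158) was lost in 2 of 6, where it reached 0.085. Of the fibroblast list, COL1A1 and PDGFRB had low counts, with summed levels of 6.94 to 8.89 CPM in untreated WT, 8.31 to 10.5 with PT2385 and 2.01 to 3.09 in KO. PDGFRB had 27, 31 and 28 counts in untreated WT and 2, 2 and 0 in KO (log2 fold change -4.50, edgeR adjusted p = 4.56e-05). COL1A1 was 2.15-fold lower in KO (adjusted p = 0.00346). With PT2385 neither passed (adjusted p = 0.894 for PDGFRB and 0.329 for COL1A1). The part of these shifts in the results below was not tested. In bulk RNA a smaller share of cells expressing a gene and less RNA per cell cannot be told apart.

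The promoter sequences of members that moved show how these genes differ upstream of their start. RefSeq promoter windows on GRCh38.p14, from 250 bases before to 50 after the start, were found for 8 of the 10 genes and not for IGFBP1 and IGFBP7. The 8 genes had 10 windows, of which 3 belong to IGFBP2. The letters searched on both strands were ACGTG and GCGTG, the core of the hypoxia response element, CACGTG, an E-box that contains ACGTG, and CAAAACA, found in insulin response sequences. Of all 35116 windows in the table, 21.4% hold ACGTG, 36.5% hold GCGTG, 48.4% hold either, 7.26% hold CACGTG and 4.92% hold CAAAACA. The 250 bases before the start are printed 5′ to 3′ on the strand of the gene for 3 genes that fell in both comparisons and for IGFBP4, which rose in KO. Capitals mark the letters searched for.
IRS2, chr13:109786584-109786833, minus strand: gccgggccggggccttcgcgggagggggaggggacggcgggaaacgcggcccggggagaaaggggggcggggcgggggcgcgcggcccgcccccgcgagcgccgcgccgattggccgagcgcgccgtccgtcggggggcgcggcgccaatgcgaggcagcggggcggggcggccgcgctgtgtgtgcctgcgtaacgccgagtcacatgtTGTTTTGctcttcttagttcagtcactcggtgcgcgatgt
IGFBP3, chr7:45921273-45921522, minus strand: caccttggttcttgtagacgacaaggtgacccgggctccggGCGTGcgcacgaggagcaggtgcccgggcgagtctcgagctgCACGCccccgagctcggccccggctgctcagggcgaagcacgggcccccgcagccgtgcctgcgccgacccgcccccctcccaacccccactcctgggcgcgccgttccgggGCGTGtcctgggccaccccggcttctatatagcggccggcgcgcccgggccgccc
IGF1R, chr15:98648289-98648538, plus strand: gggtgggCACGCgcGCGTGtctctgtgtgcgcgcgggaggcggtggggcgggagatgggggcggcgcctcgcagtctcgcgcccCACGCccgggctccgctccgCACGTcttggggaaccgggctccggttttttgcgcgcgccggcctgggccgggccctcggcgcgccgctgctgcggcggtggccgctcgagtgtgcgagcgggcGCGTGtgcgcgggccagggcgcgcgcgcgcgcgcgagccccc
IGFBP4, chr17:40443200-40443449, plus strand: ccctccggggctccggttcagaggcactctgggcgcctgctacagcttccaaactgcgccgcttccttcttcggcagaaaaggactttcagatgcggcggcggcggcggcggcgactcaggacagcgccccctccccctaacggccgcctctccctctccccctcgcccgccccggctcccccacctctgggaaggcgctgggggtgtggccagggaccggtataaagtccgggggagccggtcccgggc

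None of these 4 stretches overlaps an exon of GENCODE release 44, although that of IGFBP3 lies inside the bounds of the gene, whose longest model starts further upstream. The IRS2 stretch has neither hypoxia response core and holds CAAAACA once, on the opposite strand with its first printed base at position -40 from the start. The IGFBP3 stretch holds GCGTG 3 times, at -209 and -55 on the printed strand and at -167 on the opposite strand. In IGF1R there are 4 matches to GCGTG and 1 to ACGTG, and 81.2% of its 250 bases are G or C. The IGFBP4 stretch, with 71.6% G or C, holds no searched letters, and neither do the windows of IGFBP5 and IGFBP6. IRS1 has GCGTG at -168 and CACGTG just after its start, at position 36. At least 1 hypoxia response core was found in the windows of 4 of the 8 genes (IGFBP2, IGFBP3, IGF1R and IRS1). Counted by window, as in the 48.4% of all windows, these were 5 of 10. A match in letters is a description of the sequence and not a measured binding site.

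Levels of different genes were compared per kb of exon. In untreated WT the most abundant transcript of the 10 was IGFBP3 at 128.0 ± 16.4 CPM per kb (SD, n = 3), followed by IRS2 at 94.9 ± 6.22 and IGFBP7 at 33.1 ± 3.48. IRS1 (14.4 ± 1.11), IGF1R (11.96 ± 0.907), IGFBP6 (9.05 ± 0.313), IGFBP1 (7.38 ± 1.72) and IGFBP4 (2.02 ± 0.265) came next, and the replicates of neighbours in this order did not overlap. With PT2385, IGFBP3 still led at 82.3 ± 8.54 CPM per kb, IGFBP7 was next at 37.8 ± 2.61, and IRS2 dropped to place 3 at 16.9 ± 2.83, where its replicates overlapped those of IRS1 (14.2 ± 2.20). In KO the replicates of IGFBP3 (65.6 ± 15.6) and IGFBP7 (51.7 ± 5.55) overlapped, IGFBP6 came next at 19.8 ± 4.94, and IRS2 (12.6 ± 2.19) and IRS1 (12.05 ± 2.32) after it, with IRS2 overlapping both of its neighbours. IGF1R, IGFBP4 and IGFBP1 followed at 5.77 ± 0.309, 4.86 ± 1.11 and 4.07 ± 1.24 CPM per kb, where IGFBP4 overlapped both others and IGF1R and IGFBP1 did not overlap. With the length of the longest transcript in place of all exon bases, the order of the 10 genes was identical in each of the 3 groups.

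**Figure D1:**
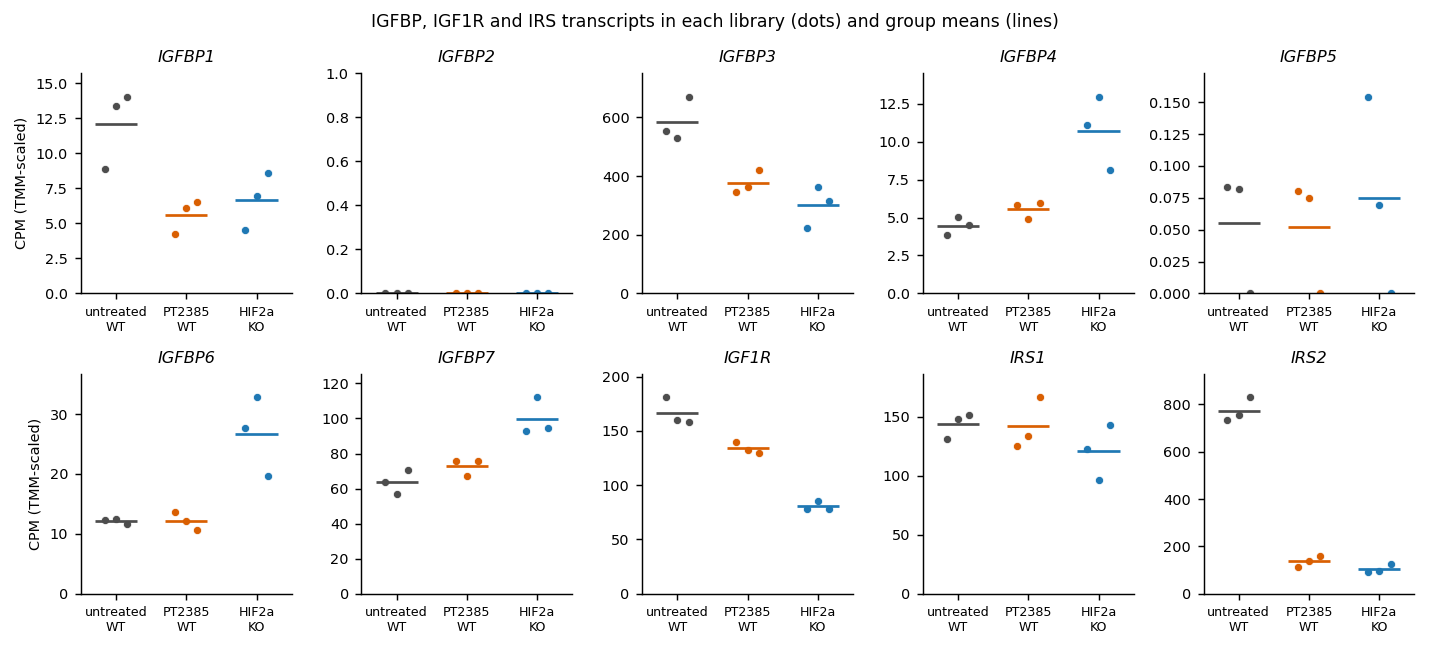
CPM of the 10 genes in each library, with 1 dot per library, a line at each group mean and a vertical axis from 0 in every panel with its own scale. IRS2 stands at 734 to 831 CPM in untreated WT and at 90.0 to 161 CPM in the 6 other libraries, and IGFBP4, IGFBP6 and IGFBP7 are highest in KO.

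No transcript of the ligands was counted. IGF1, IGF2 and INS had 0 counts in all 9 libraries, which allows up to 3 counts, or 0.204 to 0.253 CPM, in a library. IGF2 and INS share exon bases with the readthrough gene INS-IGF2 on the same strand. IGF2 also shares 2711 exon bases with a gene without a symbol on that strand. IGF1 shares 6693 exon bases with HELLPAR on the opposite strand. Reads in shared bases may have been dropped in counting, for IGF1 if strand was ignored. The medium contained serum, itself a known source of IGFs, and protein was not measured here.

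IGFBP3, the main carrier of IGFs in blood, fell in both comparisons. It had 554, 530 and 670 CPM in the 3 untreated libraries, 345, 363 and 420 CPM with PT2385 and 222, 362 and 314 CPM in KO, so every treated or KO library lay below every untreated one. The log2 fold change was -0.64 with PT2385 (SE 0.092, edgeR adjusted p = 0.000874) and -0.95 in KO (SE 0.148, adjusted p = 0.000624), a level 1.56-fold and 1.93-fold lower. KO and treated cells overlapped, and their difference of -0.33 did not pass the test (adjusted p = 0.158), but it did so without KO replicate 2 (-0.49, adjusted p = 0.0376) and without the filter on low counts (adjusted p = 0.000559).

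IGFBP1, a binding protein that insulin represses in liver, was a low transcript that also fell in both. Its counts were 106, 163 and 168 in untreated WT, 53, 82 and 93 with PT2385 and 59, 100 and 125 in KO. The lowest untreated library, at 8.88 CPM, lay above the highest treated library (6.50 CPM) and close to the highest KO library (8.59 CPM). The log2 fold change was -1.10 with PT2385 (SE 0.201, edgeR adjusted p = 0.00494), or 2.14-fold lower. In KO it was -0.83 (SE 0.229, adjusted p = 0.0177), and this call was lost without untreated replicate 2 (adjusted p = 0.0739), untreated replicate 3 (0.0756) or KO replicate 1 (0.0581). IGFBP1 and IGFBP3 are neighbours on chromosome 7 that point towards each other, IGFBP1 at chr7:45888360-45893660 on the plus strand and IGFBP3 at chr7:45912245-45921874 on the minus strand, with 18584 bases between their 3′ ends.

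IGFBP4, IGFBP6 and IGFBP7 rose in KO. IGFBP4, which mostly inhibits IGF action, had 46, 61 and 54 counts in untreated WT, 72, 66 and 85 with PT2385 and 144, 187 and 118 in KO. Its KO libraries, at 8.11 to 13.0 CPM, lay above all 6 others, which reached at most 5.94 CPM. The log2 fold change in KO was 1.28 (SE 0.199, edgeR adjusted p = 0.000624), or 2.42-fold higher, and with PT2385 it was 0.31 (adjusted p = 0.335). KO and treated cells differed by 0.94 (adjusted p = 0.00537).

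IGFBP6, a binding protein with a preference for IGF2, kept nearly the same level with PT2385 and stood higher in KO. It had 12.3, 12.5 and 11.7 CPM in untreated WT, 13.6, 12.2 and 10.6 CPM with PT2385 and 27.6, 32.8 and 19.6 CPM in KO. The change was 2.21-fold in KO against untreated WT (log2 fold change 1.15, SE 0.169, edgeR adjusted p = 0.000431) and 2.20-fold against treated cells (1.14, SE 0.180, adjusted p = 0.0013). With PT2385 the difference was -0.01 (SE 0.124, adjusted p = 0.973).

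IGFBP7, a secreted protein with low affinity for IGFs that is best known from vessels, was the second most abundant binding protein. It had 63.8, 57.1 and 70.5 CPM in untreated WT, 75.9, 67.2 and 75.9 CPM with PT2385 and 92.8, 112 and 94.5 CPM in KO. Untreated and treated libraries overlapped, and all KO libraries lay above both. Its log2 fold change was 0.66 in KO (SE 0.0948, edgeR adjusted p = 0.000353), 0.45 between KO and treated cells (adjusted p = 0.00554) and 0.19 with PT2385 (adjusted p = 0.227). IGFBP7 shares 260 exon bases with POLR2B on the opposite strand, a gene with 222, 232 and 240 CPM in the means of untreated, treated and KO cells, and strand-specific counting is not given in the sources used here.

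IGFBP2 and IGFBP5 were at the floor of detection. IGFBP2 had 0 counts in all 9 libraries, and IGFBP5 had 0 to 2 counts in each, 2, 2 and 3 in the sums of untreated, treated and KO cells. No fold change is given for them. They are also neighbours that point towards each other, on chromosome 2, with IGFBP2 at chr2:216632828-216664436 and IGFBP5 at chr2:216672105-216695549 and 7668 bases between them. Of the 2 convergent pairs of this family, 1 passed the filter on low counts and 1 did not.

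The make-up of the IGFBP transcripts differed between the groups. Summed over the 7 genes, they came to 179.6 ± 20.1 CPM per kb in untreated WT, 135.1 ± 9.24 with PT2385 and 146.1 ± 23.8 in KO (SD, n = 3), and the KO libraries overlapped both other groups. The share of IGFBP3 was 70.2% to 72.4% in untreated WT, 58.0% to 63.1% with PT2385 and 38.9% to 48.7% in KO, without overlap between any of the groups. The share of IGFBP7 was 18.4% ± 0.807, 28.0% ± 1.88 and 35.6% ± 2.46 in the same order, and that of IGFBP6 was 5.09% ± 0.703, 6.73% ± 1.20 and 13.6% ± 3.07. These shares are a description with no test, and were computed after the levels were seen. A share also rises when another gene of the sum falls. With PT2385 the level of IGFBP3 went from 128.0 to 82.3 CPM per kb. IGFBP7 went from 33.1 to 37.8 and IGFBP6 from 9.05 to 9.02 CPM per kb, and neither passed the test with PT2385. With the longest transcript as length, added after seeing the data, the mean share of IGFBP3 was 77.4%, 67.9% and 52.5%.

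**Figure D2:**
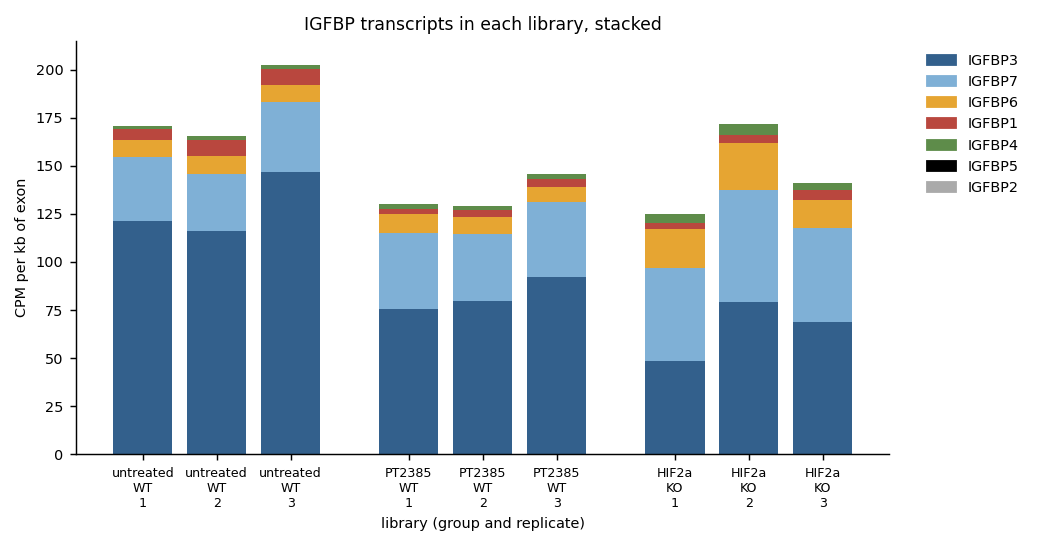
Stacked CPM per kb of exon of the 7 IGFBP transcripts, with 1 bar per library and the libraries ordered by group and replicate. IGFBP3 takes 70.2% to 72.4% of the bar in untreated WT and 38.9% to 48.7% in KO, and IGFBP2 and IGFBP5 are too low to be visible.

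The receptor IGF1R had its lowest level in KO. It had 181, 160 and 158 CPM in untreated WT, 140, 133 and 129 CPM with PT2385 and 77.9, 85.4 and 78.1 CPM in KO, and none of the 3 groups overlapped another. In KO it was 2.05-fold lower than in untreated WT (log2 fold change -1.04, SE 0.0744, edgeR adjusted p = 1.94e-06) and 1.67-fold lower than in treated cells (-0.74, SE 0.0718, adjusted p = 5.78e-05). The change with PT2385 was smaller at -0.32 (SE 0.0697, adjusted p = 0.0153). That call was lost without untreated replicate 1 (-0.25, adjusted p = 0.0779), untreated replicate 2 (0.0548) or PT2385 replicate 2 (0.0821), while the direction held in each.

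IRS2 showed the largest change of the 8 tested genes in both comparisons against untreated WT. This docking protein couples insulin and IGF receptors to PI3-kinase. It had 8756, 9194 and 9938 counts in untreated WT, 1422, 1839 and 2302 with PT2385 and 1166, 1379 and 1796 in KO. The lowest untreated library (734 CPM) was more than 4-fold above the highest treated library (161 CPM). The level was 5.63-fold lower with PT2385 (log2 fold change -2.49, SE 0.104, edgeR adjusted p = 1.27e-08) and 7.44-fold lower in KO (-2.89, SE 0.109, adjusted p = 1.14e-08). KO and treated libraries overlapped, at 90.0, 95.5 and 123 CPM against 115, 137 and 161 CPM. Their difference of -0.42 missed the threshold (SE 0.137, adjusted p = 0.056) and passed it without KO replicate 3 (-0.57, adjusted p = 0.00736), without PT2385 replicate 1 (-0.53, adjusted p = 0.0188) and with DESeq2 (adjusted p = 0.0175). It also passed in edgeR with library size alone as scaling (adjusted p = 0.0449), with all 9 libraries in a single model (0.0273) and without the filter on low counts (3e-05). Without that filter 3606 genes changed in this comparison, and 2897 with it.

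IRS1, the other docking protein, did not pass the edgeR test as set in any of the 3 comparisons. It had 131, 148 and 152 CPM in untreated WT, 125, 134 and 167 CPM with PT2385 and 122, 96.7 and 143 CPM in KO, with overlap between all groups. The log2 fold changes were -0.02 with PT2385 (SE 0.0991, edgeR adjusted p = 0.934) and -0.24 in KO (SE 0.117, adjusted p = 0.157), and KO and treated cells differed by -0.23 (SE 0.141, adjusted p = 0.297). The difference of KO from untreated WT passed without KO replicate 3 (-0.38, adjusted p = 0.00578) and without the filter on low counts (adjusted p = 0.00992). Per kb of exon, IRS2 stood far above IRS1 in untreated WT (94.9 against 14.4 CPM per kb) and the 2 overlapped in the treated and the KO cells.

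**Figure D3:**
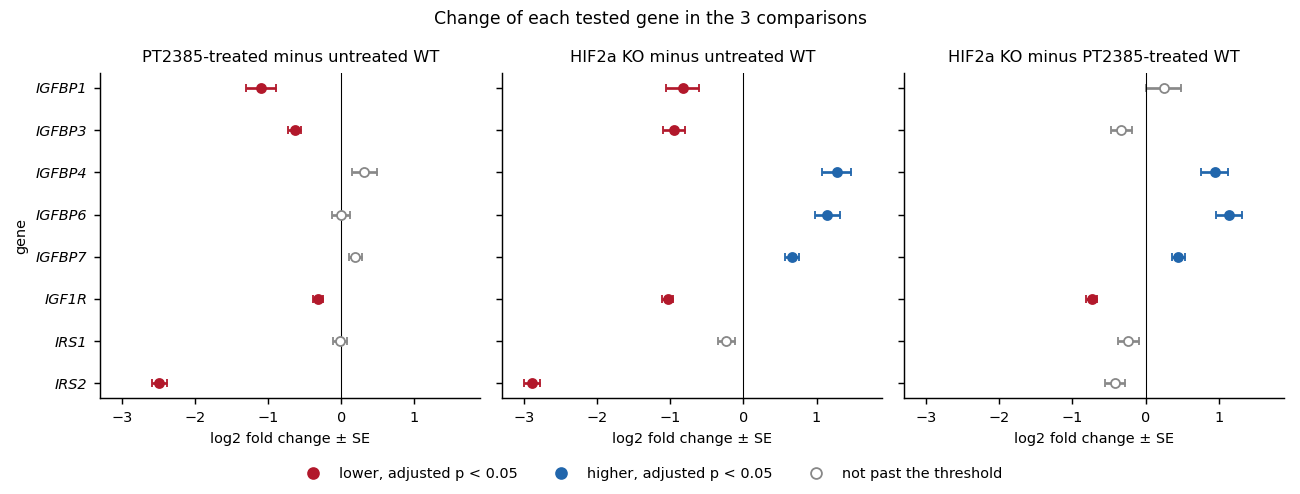
Log2 fold change of the 8 tested genes in the 3 comparisons, with bars of ±1 SE and filled symbols for adjusted p under 0.05. IGFBP1, IGFBP3, IGF1R and IRS2 lie left of 0 in both comparisons against untreated WT, and IGFBP4, IGFBP6 and IGFBP7 lie right of 0 in both comparisons of KO.

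Read together for PT2385 against untreated WT, 4 of the 8 tested genes were down-regulated (IGFBP1, IGFBP3, IGF1R and IRS2) and 0 were up-regulated. Among all 15089 tested genes 7.7% changed, 4.62% down-regulated and 3.08% up-regulated. The same 4 genes had replicate ranges that did not overlap, which 26% of all tested genes had. The median log2 fold change was -0.17 over the 8 genes and 0.000993 over all tested genes. The number of changed genes in the whole table, 1162, was 654, 581 and 728 without untreated replicates 1, 2 and 3 and 1451, 574 and 1242 without PT2385 replicates 1, 2 and 3. The number among the 8 was 3 or 4 in each of these 6 sets. Against a change of 1.5-fold, IRS2 alone passed.

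In KO against untreated WT, 7 of the 8 tested genes changed, 4 down-regulated (again IGFBP1, IGFBP3, IGF1R and IRS2) and 3 up-regulated (IGFBP4, IGFBP6 and IGFBP7). The background was also larger, with 30.1% of 15192 tested genes changed, 15.4% down-regulated and 14.7% up-regulated. Replicate ranges did not overlap for the same 7 genes and for 43.8% of all tested genes. Against a change of 1.5-fold, IGF1R, IGFBP4, IGFBP6 and IRS2 passed.

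Tested directly between KO and treated cells, 3 genes were higher in KO (IGFBP4, IGFBP6 and IGFBP7) and 1 was lower (IGF1R). In this comparison 18.8% of 15402 tested genes changed, 10.3% lower and 8.47% higher in KO, and ranges did not overlap in 35.4%. The total of 2897 changed genes was 1836 without PT2385 replicate 2. Only IGFBP6 passed against a change of 1.5-fold. IGFBP1, IGFBP3, IRS1 and IRS2 did not pass in this comparison.

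Other genes of the pathway were read from a list of 58 genes by role. Of these, 46 were tested with PT2385 and 7 changed (15.2%), 3 up-regulated and 4 down-regulated. In KO 47 were tested and 23 changed (48.9%), 13 up-regulated and 10 down-regulated. Of all tested genes 7.7% changed with PT2385 and 30.1% in KO. The median log2 fold change of the listed genes was -0.00606 with PT2385 and 0.0398 in KO, beside 0.000993 and 0.00378 over all tested genes. The 7 genes changed with PT2385 also changed in KO in the same direction (PAPPA, CRIM1 and PIK3R3 up-regulated, DDIT4, HTRA1, STC1 and STC2 down-regulated), and both comparisons share their controls. Between KO and treated cells 14 of 47 differed (29.8%, with 18.8% of all tested genes), and 9 without KO replicate 1 or 8 without PT2385 replicate 2. At or under the floor of 3 counts in every library were 9 genes of the list, IGF1, IGF2, INS, INSR, the insulin receptor-related receptor INSRR, IGFALS, ESM1, IGFBPL1 and IRS4, and all of these but IGFALS had 0 throughout.

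**Figure D4:**
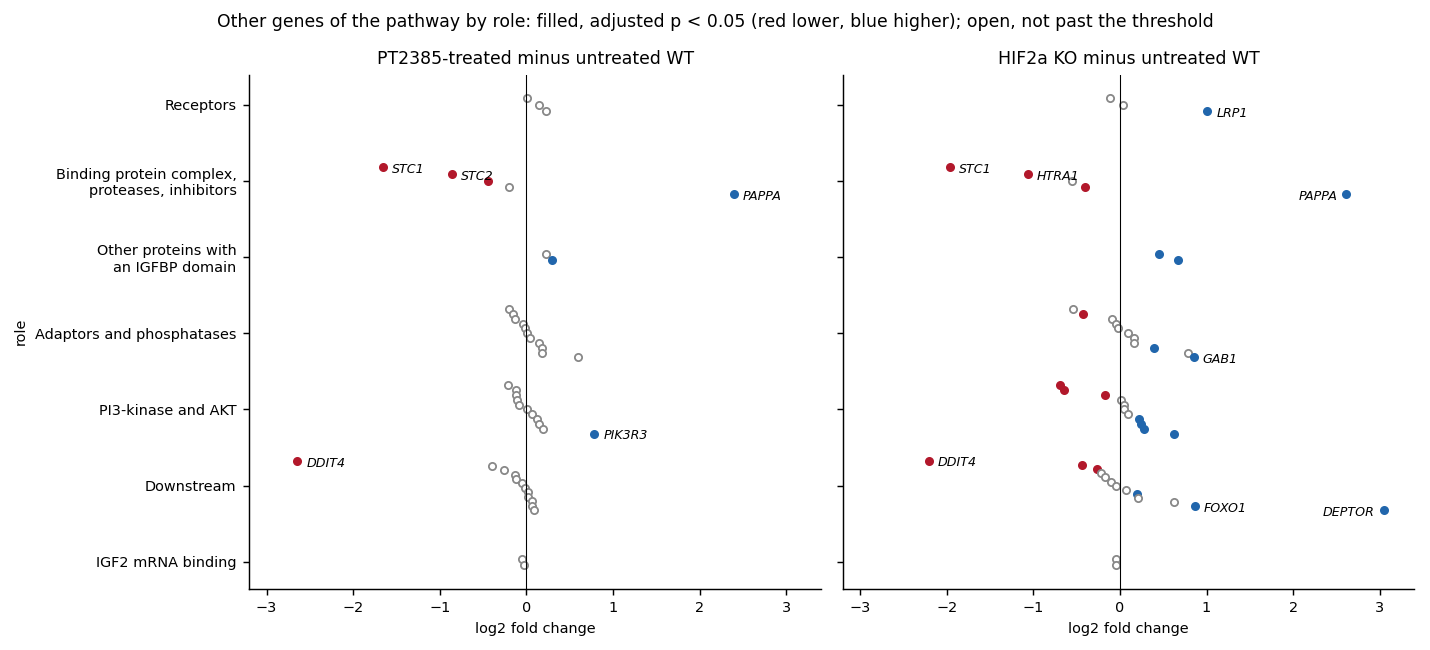
Log2 fold changes of the tested genes of the pathway list, grouped by role, for PT2385 on the left and KO on the right, with filled symbols for adjusted p under 0.05 and names for changed genes beyond 0.7 in either direction. With PT2385 the changed genes lie mainly in the row of proteases and their inhibitors, and in KO they are spread over 6 of the 7 rows.

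The proteases that cut IGFBPs and the inhibitors of those proteases included 4 changed genes of 5 tested in each comparison against untreated WT, where 7.7% of all tested genes changed with PT2385 and 30.1% in KO. PAPPA, the metalloprotease that cuts IGFBP4, rose from 11, 5 and 10 counts in untreated WT to 60, 47 and 46 with PT2385 and 64, 43 and 78 in KO. No replicates overlapped with untreated WT, and the level was 5.25-fold higher with PT2385 (log2 fold change 2.39, SE 0.316, edgeR adjusted p = 0.000464) and 6.11-fold higher in KO (2.61, SE 0.342, adjusted p = 0.000183). PAPPA shares 2450 exon bases with the antisense gene PAPPA-AS1, which went the other way, with 72, 84 and 87 counts in untreated WT, 41, 24 and 35 with PT2385 and 11, 22 and 19 in KO. In the reference annotation the shared bases span the exons of PAPPA-AS1. It had the higher counts of the 2 genes in untreated WT, and PAPPA had the higher counts in treated and KO cells. Strand-specific counting is not given in the sources used here, and how reads of the shared bases were assigned was not tested.

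STC1 and STC2, the stanniocalcins that bind and inhibit PAPPA, were lower where PAPPA was higher. STC1 had 204, 198 and 287 counts in untreated WT, 52, 71 and 123 with PT2385 and 49, 54 and 101 in KO, and was 3.14-fold lower with PT2385 (log2 fold change -1.65, SE 0.225, edgeR adjusted p = 0.000583) and 3.90-fold lower in KO (-1.96, SE 0.233, adjusted p = 9.09e-05). STC2 was the more abundant, at 197, 190 and 153 CPM in untreated WT, 102, 100.2 and 95.5 CPM with PT2385 and 139, 105 and 161 CPM in KO. Its fall with PT2385 was 1.82-fold (log2 fold change -0.86, SE 0.0897, adjusted p = 6.52e-05). In KO it was -0.40 with an adjusted p of 0.0498, the replicates overlapped those of untreated WT, and the call was lost without untreated replicate 1 (0.17) or 2 (0.148) without KO replicate 1 (0.0955) or 2 (0.122), and with at least 10 counts required in every library (0.0536). STC2 was higher in KO than in treated cells (0.44, adjusted p = 0.0355), a call lost without KO replicate 1 (0.117) or 3 (0.0825) and without PT2385 replicate 1 (0.0562), 2 (0.101) or 3 (0.0807).

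HTRA1, a secreted serine protease with an IGFBP-like domain, fell as well. It had 34.9, 32.7 and 26.8 CPM in untreated WT, 26.0, 22.0 and 21.9 CPM with PT2385 and 16.2, 16.7 and 11.9 CPM in KO. In KO it was 2.09-fold lower (log2 fold change -1.06, SE 0.145, edgeR adjusted p = 0.000245). The fall with PT2385 was -0.44 (SE 0.115, adjusted p = 0.0377) and was lost without untreated replicate 1 (0.161) or 2 (0.159), without PT2385 replicate 2 (0.158) or 3 (0.0532), with library size alone as scaling (0.0503) and with all 9 libraries in a single model (0.0797). PAPPA2, the remaining tested protease, had 22.7, 18.4 and 10.5 CPM in untreated WT, 17.8, 17.8 and 9.78 CPM with PT2385 and 13.2, 12.1 and 9.55 CPM in KO, with overlap between all groups. Its log2 fold changes were -0.20 with PT2385 (SE 0.262, edgeR adjusted p = 0.727) and -0.56 in KO (SE 0.238, adjusted p = 0.102). The latter passed with DESeq2 (adjusted p = 0.0471), and in edgeR with replicate number as a block (0.0114) and in 1 of 6 fits with a library left out (0.00567). IGFALS, the subunit that joins IGFBP3 and IGF in the circulating complex, had at most 2 counts in a library.

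**Figure D5:**
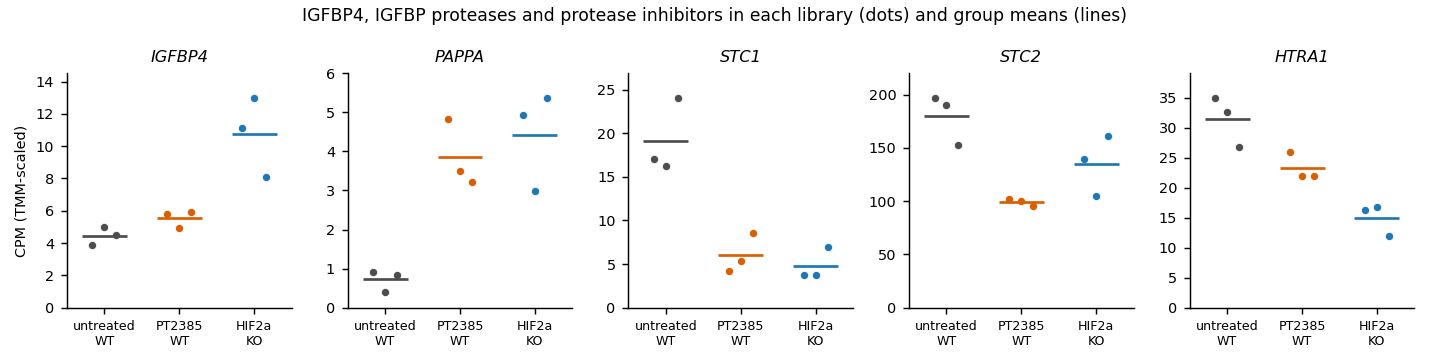
CPM of IGFBP4, of the IGFBP proteases PAPPA and HTRA1 and of the PAPPA inhibitors STC1 and STC2 in each library, with 1 dot per library, a line at each group mean and a vertical axis from 0. PAPPA is at 0.412 to 0.922 CPM in untreated WT and at 2.98 to 5.36 CPM in the 6 other libraries, and STC1 shows the opposite order.

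Among other proteins with an IGFBP domain, CRIM1, a membrane protein that binds growth factors, rose with PT2385 (log2 fold change 0.30, SE 0.0751, edgeR adjusted p = 0.0326) and in KO (0.46, SE 0.112, adjusted p = 0.0104). Its level was 399, 426 and 489 CPM in untreated WT, 508, 540 and 571 CPM with PT2385 and 518, 551 and 716 CPM in KO. Both calls were lost without untreated replicate 1 (0.15 and 0.0532) or untreated replicate 2 (0.143 and 0.0534), and the call with PT2385 also without PT2385 replicate 2 (0.121) and with all 9 libraries in a single model (0.136). KAZALD1, a secreted protein, had 108, 88 and 79 counts in untreated WT, 121, 107 and 129 with PT2385 and 164, 191 and 149 in KO. Its KO libraries lay above all others, and it rose 1.59-fold in KO (0.67, SE 0.161, edgeR adjusted p = 0.00892), a call kept with each library left out, while the difference with PT2385 was 0.22 (adjusted p = 0.464). ESM1 and IGFBPL1 had 0 counts.

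Of the other receptors, IGF2R, which clears IGF2 and carries lysosomal enzymes, had 682 ± 40.7 CPM in untreated WT, 753 ± 23.0 with PT2385 and 694.7 ± 2.37 in KO (SD, n = 3). Its treated libraries (730.3 to 776.3 CPM) lay above all untreated (637.5 to 717.2) and all KO libraries (692.8 to 697.4). It did not pass the edgeR test as set (adjusted p of 0.198 with PT2385, 0.668 in KO and 0.191 between KO and treated cells). With replicate number as a block, the difference with PT2385 passed (edgeR adjusted p = 0.0257). It shares 571 exon bases with the pseudogene CHP1P2 on the same strand. The insulin receptor INSR had 0 counts in all 9 libraries, although the reference annotation shows no other gene over its exons. LRP1, an endocytic receptor that also binds IGFBP3, was 2.01-fold higher in KO than in untreated WT (178 against 89.2 CPM in the group means, log2 fold change 1.01, SE 0.104, adjusted p = 3.16e-05) and higher than in treated cells (0.77, adjusted p = 0.000232).

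Of 11 tested adaptors and phosphatases, 0 passed with PT2385, where 7.7% of all tested genes did, and 3 (27.3%) changed in KO, where 30.1% of all tested genes did. GAB1, a docking protein downstream of growth factor receptors, was 1.80-fold higher in KO than in untreated WT (12.2 against 6.83 CPM, log2 fold change 0.85, SE 0.142, adjusted p = 0.00099).

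In the PI3-kinase and AKT group 1 of 11 tested genes (9.09%) changed with PT2385 and 7 of 11 (63.6%) in KO, next to the same 7.7% and 30.1%. PIK3R3, a regulatory subunit of PI3-kinase, rose in both, from 109, 103 and 111 counts in untreated WT to 187, 205 and 229 with PT2385 and 167, 237 and 169 in KO (log2 fold changes 0.78 and 0.62, SE 0.111 and 0.15, edgeR adjusted p = 0.000802 and 0.00927). The catalytic subunit PIK3CD fell in KO from 79.5 to 50.6 CPM in the group means (log2 fold change -0.64, SE 0.0955, edgeR adjusted p = 0.00046). It was also lower in KO than in treated cells, by -0.55 (adjusted p = 0.0071).

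In the group that holds the FOXO and mTOR genes, DDIT4 fell in both comparisons. DDIT4 (also called REDD1) is a hypoxia-inducible inhibitor of mTOR, and had 469, 418 and 321 CPM in untreated WT, 87.9, 65.1 and 41.5 CPM with PT2385 and 89.7, 104 and 65.3 CPM in KO. It was 6.25-fold lower with PT2385 (log2 fold change -2.64, SE 0.213, edgeR adjusted p = 6.58e-06) and 4.63-fold lower in KO (-2.21, SE 0.168, adjusted p = 3.07e-06). DEPTOR, an inhibitory partner of mTOR, had 4, 9 and 9 counts in untreated WT, 6, 15 and 5 with PT2385 and 66, 96 and 50 in KO. Its rise in KO was 8.26-fold against untreated WT (3.05, SE 0.358, adjusted p = 8.55e-05) and 7.69-fold against treated cells (adjusted p = 0.000447). FOXO1, a transcription factor that AKT inactivates and that drives IRS2 and IGFBP1 in liver, was 1.82-fold higher in KO than in untreated WT (17.3 against 9.60 CPM, log2 fold change 0.86, SE 0.123, adjusted p = 0.000341) and had 9.68 CPM with PT2385.

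The gene with the most similar pattern over the 9 libraries was sought for each of the 8 tested genes among 9529 genes with a mean of at least 10 CPM. Likeness was the root mean square difference of log2 CPM, each gene centred on its own mean. For IRS2 it was ADM, which encodes the peptide adrenomedullin, with a difference of 0.136 and group means of 64.1, 9.13 and 7.34 CPM in untreated, treated and KO cells. IGF1R was nearest to PDE8A (0.0808; 68.5, 59.1 and 35.0 CPM), which like IGF1R lies on chromosome 15. No other tested member shared a chromosome with its nearest gene. IGFBP3 was nearest to the nuclear receptor gene NR2F2 (0.141), IGFBP1 to EFHD2 (0.223), IGFBP4 to BPNT1 (0.133), IGFBP6 to PDP1 (0.126), IGFBP7 to EEIG2 (0.0793) and IRS1 to NR2C2AP (0.0607). These differences compare with an SD of the gene's own log2 CPM of 1.38 for IRS2, 0.568 for IGFBP1 and 0.226 for IRS1.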

How the data were processed

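The deposited count table of the authors was used. Before counting, the authors ran FastQC on the reads and cutadapt to trim them. STAR placed the reads on GRCh38, and featureCounts gave the number per gene. The annotation release and strandedness are not given in the sources used here. Each pair of groups was fitted with edgeR 4.0.16 (TMM, filterByExpr with a minimum of 10 counts, quasi-likelihood F test) in R 4.3.3, with DESeq2 1.42.0 as an alternative. SE is the absolute log2 fold change over the square root of F and is approximate. Exon lengths came from GENCODE release 44, which matched 58207 of 58735 identifiers, and promoters from RefSeq on GRCh38.p14. Alternatives were library-size scaling, other filters, a 1.5-fold threshold, a stricter cutoff, all 9 libraries in 1 model and leaving out each library. All members were named, and other pathway genes where they changed strongly or had a known role. All columns mapped to a sample (0 unmapped). Replicates are not stated to be separate cultures, so p measures spread between these samples. The genes and lists were chosen with earlier results of these data known, and the IGFBP3 share with the longest transcript was added after seeing the data. Protein features were not computed. Single results of 2 genes of the marker and pathway lists are not reported here. The scripts were tested on simulated data.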

Additional observations from a re-analysis of the deposited data

How the results depend on the processing

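Over all genes, PT2385 gave 172 changed genes against 1.5-fold, 516 at adjusted p under 0.01 and 574 to 1451 with a library left out. KO gave 882, 2788 and 3344 to 5094, and KO against PT2385 gave 528, 1657 and 1836 to 3190. Of the 8 tested members, leaving out a library gave 3 to 4 with PT2385, 6 to 8 in KO and 4 to 5 between them, and 1.5-fold gave 1, 4 and 1. Of the other pathway genes, leaving out a library gave 5 to 9 with PT2385, 16 to 22 in KO and 8 to 16 between them. Against 1.5-fold these were 3, 6 and 1, and at adjusted p under 0.01 they were 15 in KO and 8 between KO and PT2385. The cause of these differences was not tested.

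Replicate numbers did not pair the samples by the rule set beforehand. Correlations of residuals for the same number were 0.0228 to 0.338 (mean 0.21, 9 pairs), with the 3 pairs of replicate 2 under 0.1, and for different numbers -0.339 to 0.2 (mean -0.104, 18 pairs). The 6 pairs of replicates 1 and 3 had 0.218 to 0.338. In 15 of 18 cases of a library against another group, its own number gave the highest correlation, a hint from the data and not from the design. With replicate number as a block, the counts over all genes were 2305 with PT2385, 5501 in KO and 3783 between them, those of members 5, 7 and 7, and those of other pathway genes 14, 30 and 18. The member calls gained with the block were IGFBP7 with PT2385 (edgeR adjusted p = 0.0426) and, between KO and PT2385, IGFBP3 (0.0196), IRS1 (0.0484) and IRS2 (0.000606).

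With 3 libraries in a group small changes can be missed, and genes at the floor of 3 counts cannot be told apart from absent ones. If the KO cells come from a single clone, effects of the KO and of that clone cannot be told apart.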
